A study of Saccharomyces cerevisiae with 16 samples.

Results

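The small nucleolar RNAs (snoRNAs) and spliceosomal RNAs of *Saccharomyces cerevisiae* were taken from a gene-level count table as the features whose name begins with snR and a number, in either letter case, and that had at least 160 counts summed over 16 libraries. Of 7126 features in the table, 81 had such a name and 68 reached the minimum. Total RNA was sequenced after removal of ribosomal RNA (rRNA), to ask which responses to CaCl2 stress depend on calcineurin (CN), the calcium-activated phosphatase. FK506-treated cells were pre-treated for 15 minutes with 1 μg/ml FK506, a CN inhibitor, and control cells for 15 minutes with ET buffer, the vehicle. Then 200 mM CaCl2 was added, and samples were taken at 0 (before CaCl2), 10, 30 and 60 min. All 8 groups, with 2 biological replicates each, are 1 haploid strain of the BY4741 background (*MATa ura3Δ0 leu2Δ0 his3Δ0 met15Δ0*) in which *CRZ1*, a CN-regulated transcription factor, is replaced by KanMx and *HOG1*, a stress-activated MAP kinase, by *LEU2*, and which carries the tagged allele Hcm1-3HA-HIS3. All results therefore describe cells without Crz1 and Hog1, and no strain with either gene was analysed here.

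Box C/D snoRNAs guide 2′-O-methylation of rRNA, and box H/ACA snoRNAs guide its pseudouridylation, each within a particle of core proteins. A few, among them U3, U14 and snR30, are needed to cleave the rRNA precursor and are essential for growth. In yeast most snoRNAs have their own promoter, some are cut from polycistronic precursors and some from introns, while U1, U2, U4, U5 and U6 form the spliceosome.

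The 68 RNAs were 37 box C/D snoRNAs, 29 box H/ACA snoRNAs and 2 spliceosomal RNAs, U1 (snR19) and U4 (snR14). By position, 48 were independent, 14 lay in polycistronic clusters and 6 in introns. Of the 13 left out, 10 were C/D snoRNAs of 78 to 113 nt, and the others were U6 (snR6, 9 counts in all libraries together) and both forms of U5 (snR7-L with 52 counts and snR7-S with 0, which overlap each other). U2 is named LSR1 and was not taken by the rule. The lowest sums kept were 223 counts for snR79 and 227 for snR10, and the highest left out were 155 for snR53 and 151 for snR56.

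Of the C/D snoRNAs that were lower after CaCl2, 7 are shown here with the stretch of at least 10 bases that is complementary to rRNA, in capitals, and snR62, which passed no test, is shown with them. The sequences are the DNA-sense strand of the R64 genome from RefSeq, 5′ to 3′. In these guides the rRNA base that pairs with the 5th base upstream of box D or its internal copy D′ is the one annotated as methylated, which is U578 of 18S rRNA for snR77, C2197 of 25S rRNA for snR76, G2288 for snR75, U2724 for snR67, C1437 for snR24, A807 for snR39, G805 for snR39B and U1888 for snR62. The other stretch of snR24 pairs in the same way at position 1449 of 25S rRNA, also annotated. The search kept stretches at annotated positions where it found any, so this agreement was fixed in advance. It also accepted boxes with a letter changed from CTGA.
snR77: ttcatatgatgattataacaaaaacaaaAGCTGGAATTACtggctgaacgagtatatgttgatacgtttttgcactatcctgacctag
snR76: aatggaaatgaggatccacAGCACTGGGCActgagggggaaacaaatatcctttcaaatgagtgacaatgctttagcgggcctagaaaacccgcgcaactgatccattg
snR75: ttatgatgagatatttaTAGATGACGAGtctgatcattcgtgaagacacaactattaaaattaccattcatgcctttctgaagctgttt
snR67: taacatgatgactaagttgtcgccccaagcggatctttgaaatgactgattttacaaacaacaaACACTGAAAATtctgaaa
snR24: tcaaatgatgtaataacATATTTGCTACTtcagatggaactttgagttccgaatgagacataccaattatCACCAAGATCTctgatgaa
snR39: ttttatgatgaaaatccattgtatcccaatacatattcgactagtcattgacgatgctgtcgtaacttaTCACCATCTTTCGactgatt
snR39B: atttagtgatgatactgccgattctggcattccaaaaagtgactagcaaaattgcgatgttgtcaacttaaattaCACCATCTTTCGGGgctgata
snR62: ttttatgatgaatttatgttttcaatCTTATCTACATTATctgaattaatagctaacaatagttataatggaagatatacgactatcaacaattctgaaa

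Of these, snR77 lies at chrXIII:297506-297593 (+), snR76 at chrXIII:297725-297833 (+) and snR75 at chrXIII:297918-298006 (+), in 1 cluster. The others lie at chrV:61352-61433 (+) for snR67, chrXIII:499984-500072 (-) for snR24 in an intron of *ASC1*, chrVII:365163-365251 (-) for snR39 in an intron of *RPL7A*, chrVII:366374-366469 (-) for snR39B, 377 bases upstream of the annotated *RPL7A* start on the same strand, and chrXV:409765-409864 (-) for snR62. In this search, for which no chance rate was computed, a stretch of this kind at an annotated position was found in 23 of the 37 C/D snoRNAs. The letters ATGATGA or GTGATGA (box C) stood in the first 20 bases of 23 of them, against 0.44% of all 20-base windows of both genome strands. The letters CTGA (box D) stood in the last 15 bases of 35, against 4.17% of windows of that length.

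An H/ACA snoRNA is shown because it was among the few with a lower 60 min change in FK506-treated cells. It is snR31, which guides pseudouridylation of 18S rRNA at U999 and lies at chrXV:841958-842182 (-). The capitals mark the ACA near its 3′ end, a triplet found in the last 10 bases of 18 of the 29 H/ACA snoRNAs and in 12.65% of genome windows of that length.
snR31: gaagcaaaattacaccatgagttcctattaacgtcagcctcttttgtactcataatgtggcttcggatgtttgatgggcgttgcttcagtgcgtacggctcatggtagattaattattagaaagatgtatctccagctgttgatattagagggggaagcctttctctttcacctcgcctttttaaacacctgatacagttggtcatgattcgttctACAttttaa

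The library totals ranged from 11221758 to 11970166 counts, and the 68 RNAs took between 2.38 and 3.38% of each. The highest share was in replicate 1 of ET at 60 min (3.38%), while replicate 2 of that group had 2.66%, and its RNAs differed by a median log2 ratio of 0.39 between the replicates, against -0.01 to 0.17 in the other 7 groups. *HOG1* had 0 counts in all libraries and *CRZ1* 1 count in each of 2. All levels are relative to the other RNAs in a library, so that less of an RNA and more of the others cannot be told apart. Nor can a change in every cell and a change in part of the cells, or mature RNA and its precursors in gene-level counts.

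Counts were concentrated in a few long RNAs. The 5 with the most counts, snR30, snR86, U1, snR37 and the U3 gene snR17a, held 80.27% of all counts of the 68. snR30, of 606 nt, averaged 87032 counts per library, and U4, of 160 nt, 74.6. In ET cells at 0 min the level per length, in TMM-scaled CPM per kb (counts relative to the library total, scaled by edgeR's trimmed mean of M values), had a median of 2209 over the 13 RNAs longer than 250 nt, 185 over the 28 of over 120 and up to 250 nt and 47.6 over the 27 of up to 120 nt, all of them C/D. Over the 68 RNAs, length and this level per kb had a Spearman rho of 0.68, a description over RNAs that share the same 2 libraries. The part of RNA length in recovery of a library fragment was not tested, and these levels per length are given as a description.

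Before CaCl2, 0 of 68 RNAs differed between FK506 and ET cells at a limma adjusted p under 0.05. Of the 6206 genes tested 1.56% did, 0.661% higher and 0.902% lower in FK506 cells. At an unadjusted p under 0.05 there were 4, and edgeR and DESeq2 also called 0.

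After CaCl2, most changes that passed were decreases, in both treatments. In FK506 cells at 10 min, 15 of 68 were lower and 0 higher, where 54.6% of all genes were called, 30.2% lower and 24.4% higher. In ET cells at 10 min, 25 were lower and 0 higher, against 58.5% of all genes, 31.8% lower and 26.6% higher. The median log2 change was -0.35 in FK506 and -0.43 in ET cells, and -0.03 over all genes in both.

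At 30 min in FK506 cells, 29 were lower and 0 higher, against 52% of all genes, 27.5% lower and 24.5% higher. ET cells at 30 min had 22 lower and 1 higher, against 68.4%, 35.3% lower and 33.1% higher. Medians were -0.53 in FK506 and -0.15 in ET cells. At 60 min in FK506 cells, 18 were lower and 1 higher, against 28.8% of all genes, 15.7% lower and 13.1% higher. ET cells at 60 min had 28 lower and 1 higher, against 68.3%, 34.7% lower and 33.6% higher. Medians were -0.42 in FK506 and -0.27 in ET cells, with medians over all genes between -0.01 and 0.02 at both times. With both directions counted, the share called was below that of all genes in all 6 changes. In all, 49 of 68 (72.1%) were lower in at least 1 of the 6 changes, against 47.1% of all genes tested, and U1 alone (1.47%) was higher in any, against 45.4%. None of the 6 changes passed for 18 (26.5%), against 14.5% of all genes. The 6 that were lower in every change (8.82%, against 8.54%) were the C/D snoRNAs snR39B, snR67, snR76 and snR78 and the H/ACA snoRNAs snR43 and snR44, which guide modification of 25S and, for snR43 and snR44, also other rRNAs.

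Scaling and single libraries moved these counts. When libraries were scaled by their raw totals alone, the median of all genes moved by 0.20 at 30 min and 0.12 at 60 min in FK506 cells and by 0.20 and 0.24 in ET cells. FK506 cells then had 3 higher and 15 lower at 10 min, 4 higher and 15 lower at 30 min, and 4 higher and 13 lower at 60 min. ET cells had 7 higher and 18 lower at 30 min, and 12 higher and 23 lower at 60 min. With the same scaling, of all 6206 genes, 1761 were higher and 1628 lower at 10 min in FK506 cells. They were 2602 and 1056 at 30 min, and 1545 and 556 at 60 min. In ET cells 2807 were higher and 1656 lower at 30 min, and 2973 and 1535 at 60 min. Without replicate 2 of ET at 60 min, ET cells at 60 min had 12 higher and 21 lower, ET cells at 10 min 38 called, and FK506 cells 28 at 10 min and 33 at 60 min. Without replicate 1 of ET at 60 min, FK506 cells had 26 called at 10 min and 32 at 60 min, and without replicate 1 of FK506 at 0 min 27 and 29. The FK506 count at 60 min was 6 without replicate 1 and 11 without replicate 2 of FK506 at 60 min, and 8 without replicate 2 of FK506 at 0 min. The FK506 count at 30 min was 13 without replicate 1 of that group, and the ET count at 30 min was 15 without replicate 2 of that group.

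**Figure D1:**
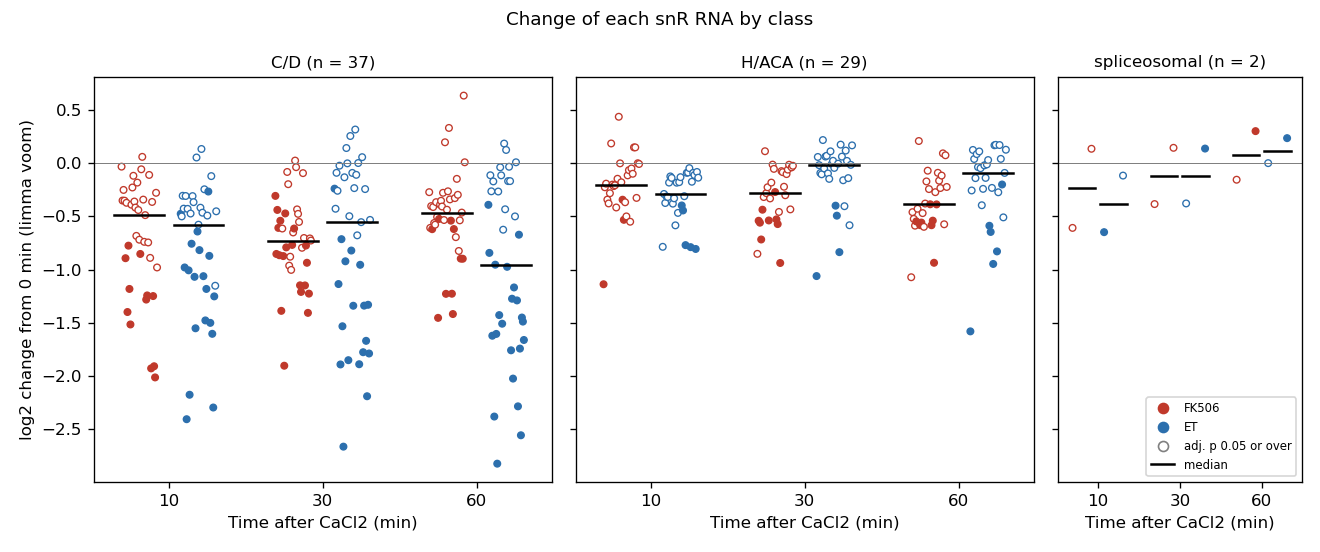
Log2 change from 0 min (y axis, limma voom) of each RNA at 10, 30 and 60 min (x axis), in FK506 cells (red, left of each pair) and ET cells (blue), by class. Filled points had an adjusted p under 0.05 and bars are medians. The C/D median at 60 min was -0.46 in FK506 and -0.95 in ET cells, that of H/ACA -0.39 in FK506 and -0.09 in ET cells.

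Of 3 length classes, that of the short C/D snoRNAs had the lowest median in all 6 changes. Of the 27 RNAs of up to 120 nt, 11, 13 and 7 were lower at 10, 30 and 60 min in FK506 cells, with median log2 changes of -0.74, -0.79 and -0.46. In ET cells 16, 16 and 19 were lower, with medians of -0.87, -0.92 and -1.43. None of the 27 was higher in either treatment. Of all genes, 30.2, 27.5 and 15.7% were lower at these times in FK506 cells. In ET cells 31.8, 35.3 and 34.7% of all genes were lower. Between 13.1 and 33.6% of all genes were higher in the 6 changes. Among the 13 RNAs longer than 250 nt, 0, 5 and 3 were lower in FK506 cells and 0, 0 and 1 in ET cells, and medians lay between -0.23 and -0.04 in all 6 changes. The Spearman rho of length with the log2 change at 10, 30 and 60 min was 0.59, 0.61 and 0.24 in FK506 cells and 0.60, 0.56 and 0.60 in ET cells, over 68 RNAs that share libraries and whose counts rise with length. The level in ET cells at 0 min, in TMM-scaled CPM, had a rho of 0.78 with length. Its rho with the change was 0.52, 0.58 and 0.20 in FK506 cells and 0.54, 0.49 and 0.53 in ET cells. Length and level were not separated.

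**Figure D2:**
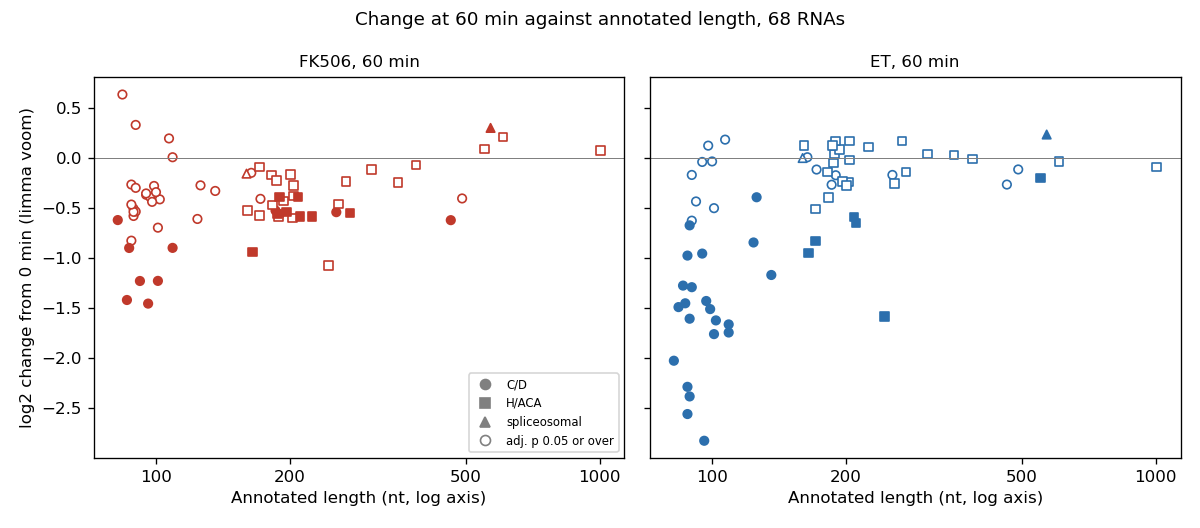
Log2 change from 0 min at 60 min (y axis) against annotated length in nucleotides (log x axis) for 68 RNAs, in FK506 cells (left) and ET cells (right), with filled points at an adjusted p under 0.05. In ET cells the 27 RNAs of up to 120 nt had a median of -1.43 and the 13 over 250 nt one of -0.09.

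The 5 counted RNAs of the snR78 to snR72 cluster on chromosome XIII, which are cut from 1 precursor, were all lower at 60 min in ET cells. Of all genes 34.7% were. In FK506 cells at 60 min snR76 and snR78 alone of the 5 were lower, against 15.7% of all genes. snR77 had 7.70 and 6.58 TMM-scaled CPM at 0 min, 2.29 and 1.54 at 10 min, 2.08 and 3.26 at 30 min, then 4.94 with 5.32 at 60 min in FK506 cells. In ET cells it had 10.5 and 9.92 at 0 min, 1.52 and 2.62 at 10 min, 1.77 with 2.63 at 30 min, then 1.52 with 1.86 at 60 min. The FK506 libraries at 60 min stood above all ET libraries after CaCl2 and below all libraries at 0 min. Its log2 change at 60 min was -0.46 ± 0.24 (SE, limma adjusted p = 0.17) in FK506 cells and -2.56 ± 0.31 (adjusted p = 1.2e-06) in ET cells.

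snR76 had 19.3 and 16.5 TMM-scaled CPM at 0 min and 8.46 and 11.1 at 60 min in FK506 cells, and 22.6 and 18.2 at 0 min and 7.05 and 5.12 at 60 min in ET cells. The 60 min libraries lay below those at 0 min in both treatments, and those of FK506 lay above those of ET. snR78 and snR74 were also lower at 10 and 30 min in both treatments, with log2 changes of -2.01 and -1.93 at 10 min in FK506 cells and of -1.25 and -1.50 in ET cells. snR75, from the middle of the cluster, differed from its neighbours, with -0.36 (adjusted p = 0.22) in FK506 cells and -0.12 (adjusted p = 0.69) in ET cells at 10 min, a difference between cluster members that was not tested. It was lower at 30 min in FK506 cells (-0.77) and at 60 min in ET cells (-0.67).

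Another 9 counted RNAs lay in 4 other clusters. snR67, which precedes snR53, had 23.6 and 21.6 TMM-scaled CPM at 0 min and 13.9 and 15.5 at 60 min in FK506 cells, and 32.2 and 27.7 at 0 min and 6.97 and 7.69 at 60 min in ET cells, and it was lower in all 6 changes. Of the cluster snR41, snR70 and snR51, snR70 alone passed, at 10 min in ET cells, and of snR57, snR55 and snR61, snR57 alone did. The pair snR190 and U14 is described with the cleavage RNAs.

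snR39B, whose guide pairs 2 bases from that of snR39, had 7.61 and 6.11 TMM-scaled CPM at 0 min and 2.35 and 2.66 at 60 min in FK506 cells, and 8.35 and 6.67 at 0 min and 1.12 and 0.932 at 60 min in ET cells. At 60 min the FK506 libraries lay above those of ET, and all lay below those at 0 min, where the treatments overlapped. The log2 change at 60 min was -1.45 ± 0.24 in FK506 cells and -2.83 ± 0.30 in ET cells (adjusted p = 0.00017 and 2.3e-07). These levels rest on 12 to 91 counts per library. snR62, of like length and a mean of 57.0 counts, had log2 changes between -0.34 and 0.32 and passed in none.

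**Figure D3:**
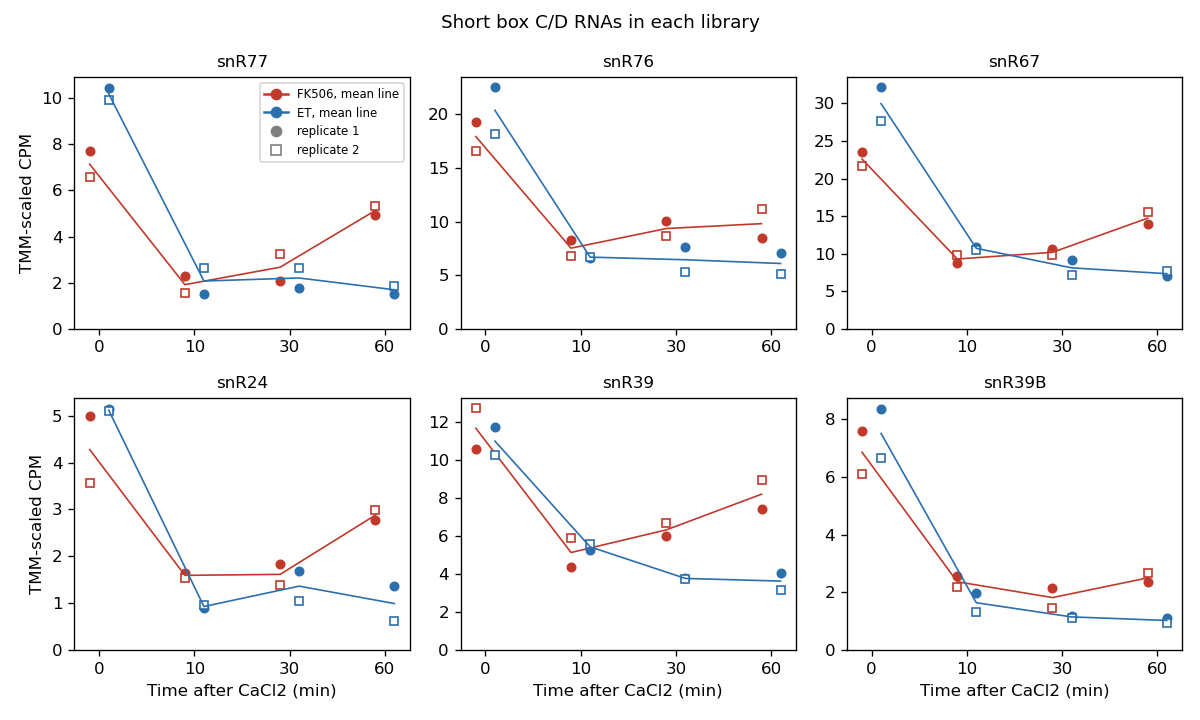
TMM-scaled CPM (y axis, from 0) at 0, 10, 30 and 60 min after CaCl2 (x axis) of 6 short C/D snoRNAs, in FK506 cells (red) and ET cells (blue), with a circle for replicate 1, an open square for replicate 2 and lines through the means. At 60 min snR77 had 4.94 and 5.32 in FK506 cells and 1.52 and 1.86 in ET cells.

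The intron-encoded snoRNAs were set beside their host genes, which encode translation factors, ribosomal proteins and a ribosome assembly GTPase. snR24, in *ASC1*, had 4.98 and 3.57 TMM-scaled CPM at 0 min and 2.77 and 2.99 at 60 min in FK506 cells, and 5.14 and 5.10 at 0 min and 1.36 and 0.621 at 60 min in ET cells. Its log2 change at 60 min was -0.58 ± 0.28 (adjusted p = 0.13) in FK506 cells and -2.38 ± 0.35 (adjusted p = 1.2e-05) in ET cells, and that of *ASC1* was -1.11 and -2.06. At 10 min, however, snR24 changed by -1.40 in FK506 and -2.41 in ET cells and *ASC1* by -0.28 and -0.23.

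snR39, in *RPL7A*, changed by -1.18 in FK506 and -1.01 in ET cells at 10 min, where *RPL7A* changed by -0.30 and -0.32. snR18, in *EFB1*, changed by -0.89 and -0.98, where *EFB1* changed by -0.41 in both. These host changes at 10 min, all past the threshold, were smaller than those of their snoRNAs. At 60 min they were larger. *RPL7A* then changed by -1.09 in FK506 and -2.73 in ET cells, and snR39 by -0.505 and -1.605. *EFB1* changed by -0.74 and -1.95, and snR18 by -0.41 and -1.62. Neither snoRNA passed in FK506 cells at 60 min. The difference between host and snoRNA was not tested. For the H/ACA snoRNA snR191, in *NOG2*, the order also depended on time and treatment. At 10 min *NOG2* changed by -2.44 in FK506 and -2.42 in ET cells and snR191 by -0.38 and -0.32, neither past the threshold. At 60 min in FK506 cells snR191 was lower (-0.55, adjusted p = 0.0275), where *NOG2* had 0.10 (adjusted p = 0.627), and in ET cells snR191 had -0.14 (adjusted p = 0.497) and *NOG2* -2.32. At 30 min in FK506 cells both were lower, snR191 by -0.44 and *NOG2* by -1.42. *NOG2* was already lower in FK506 than in ET cells at 0 min (-0.51, limma adjusted p = 0.04), so its changes start from unlike levels. snR44, in *RPS22B*, was lower in all 6 changes, by 0.44 to 0.65 on the log2 scale, and *RPS22B* by 0.47 to 1.45. snR38, in *TEF4*, was lower at 10 min in FK506 cells and at 30 and 60 min in ET cells. *TEF4* was lower in all 6 changes, by 0.33 to 2.43. snR54 (*IMD4*) and snR59 (*RPL7B*) were under the count minimum.

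**Figure D4:**
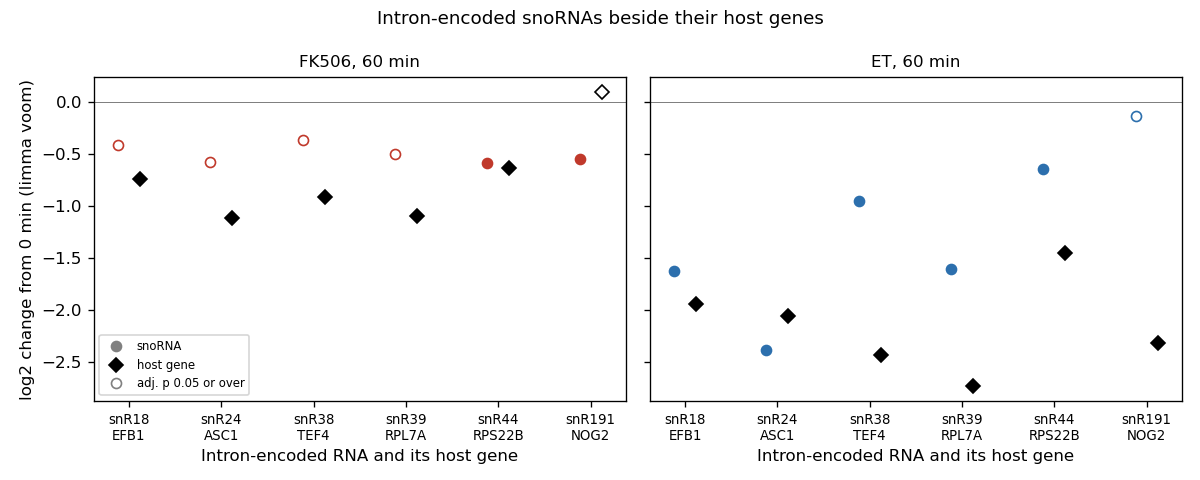
Log2 change from 0 min at 60 min (y axis) of 6 intron-encoded snoRNAs (circles) and their host genes (diamonds), in FK506 cells (left) and ET cells (right), with filled symbols at an adjusted p under 0.05. In ET cells 5 of 6 snoRNAs and all 6 hosts were lower, against 34.7% of all genes. In FK506 cells 2 of 6 snoRNAs and 5 of 6 hosts were lower, against 15.7%.

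The RNAs of pre-rRNA cleavage include the one with the most counts, snR30. It had 7624 and 6208 TMM-scaled CPM at 0 min and 8433 and 7508 at 60 min in FK506 cells, and 7787 and 7490 at 0 min and 8504 and 6517 at 60 min in ET cells. The groups overlapped, and it passed in none of the 10 comparisons, but with raw totals its ET change at 60 min was 0.20 (adjusted p = 0.0191), against -0.04 with TMM. U3 from snR17a had 2450 and 2071 in FK506 cells and 3364 and 1761 in ET cells at 60 min, so that the 2 ET libraries enclosed both FK506 libraries.

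The U3 genes were lower at 30 min in FK506 cells (-0.44 for snR17a and -0.61 for snR17b), and snR17b also at 60 min (-0.62). They are copies of 1 RNA, though 91.8 and 91.3% of their 50-base windows are unique in the genome. The split of reads is uncertain for the other windows and where snR17a overlaps *IRC13*. U14 (snR128) was lower at 30 min in FK506 cells (-0.31) and in all 3 ET changes (-0.47, -0.24 and -0.39), while its cluster partner snR190 passed at 30 min in FK506 cells alone (-0.54, adjusted p = 0.049). snR10, needed for cleavage and overlapping *YGL088W*, rested on 7 to 24 counts per library and was lower at 10 min in FK506 cells and at 30 and 60 min in ET cells. snR4, snR45 and snR35 were described with them: snR4 was lower at 30 and 60 min in FK506 cells (-0.47 and -0.52), and snR45 and snR35 passed in none of the 10 comparisons.

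Of the spliceosomal RNAs, U1, which pairs with the 5′ splice site, was the only one of the 68 that rose. U1 had 3743 and 3372 TMM-scaled CPM at 0 min and 4385 and 4378 at 60 min in FK506 cells, and 3806 and 3744 at 0 min and 4926 and 4013 at 60 min in ET cells. Both 60 min libraries lay above both 0 min libraries in each treatment, with log2 changes of 0.30 ± 0.06 in FK506 cells and 0.24 ± 0.06 in ET cells (adjusted p = 0.00081 and 0.0018). U4, which pairs with U6, was lower at 10 min in ET cells (-0.65, adjusted p = 0.045).

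**Figure D5:**
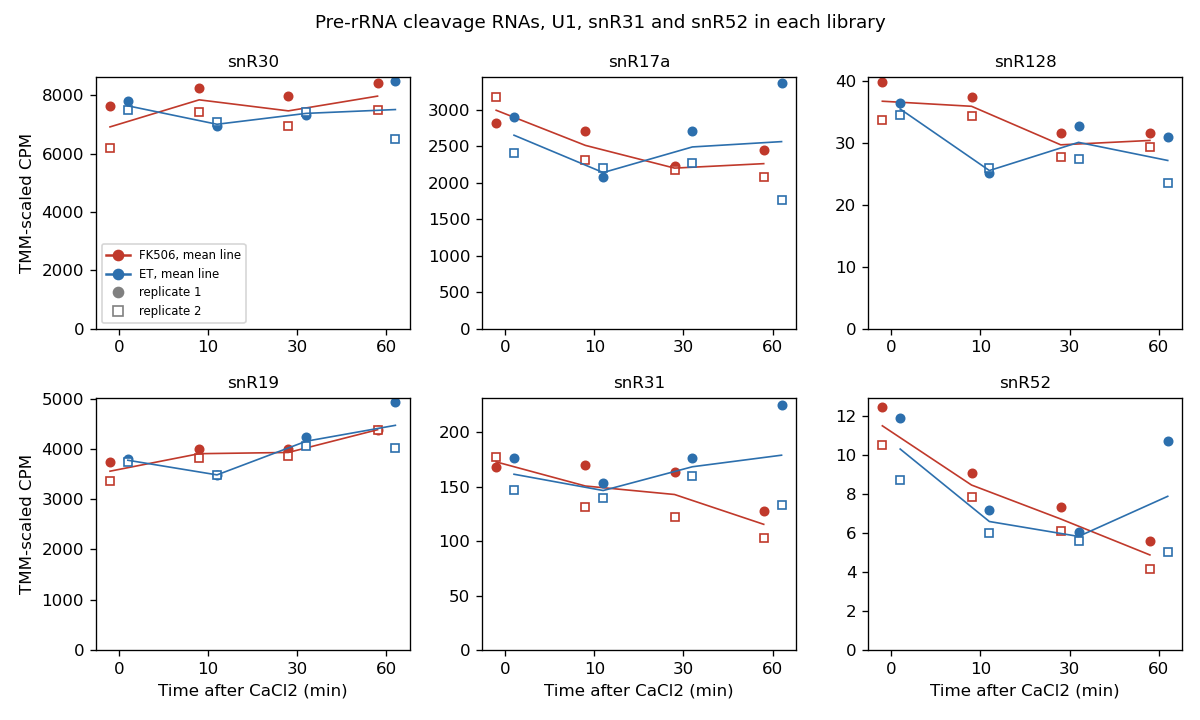
TMM-scaled CPM (y axis, from 0) at 0, 10, 30 and 60 min after CaCl2 (x axis) of snR30, U3 (snR17a), U14 (snR128), U1 (snR19), snR31 and snR52, in FK506 cells (red) and ET cells (blue), with a circle for replicate 1, an open square for replicate 2 and lines through the means. At 60 min in ET cells replicate 1 lies above replicate 2 in all 6, as for snR31 with 225.0 and 133.0.

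The comparison of FK506 with ET changes asks which responses differ when CN is inhibited. At 10 min limma called 0 of 68, and 0.0806% of all genes (0.0645% higher and 0.0161% lower in FK506 cells), with 6 at an unadjusted p under 0.05 and 0 by edgeR and DESeq2. At 30 min 2 were higher in FK506 cells and 0 lower (31.7% of all genes were called, 17.8% higher and 14% lower), with a median difference of -0.14 against 0.01 over all genes. The 2 were snR67 (0.74, adjusted p = 0.013) and snR76 (0.73, adjusted p = 0.042), and leaving out single libraries gave between 0 calls (without replicate 1 of ET at 0 min or replicate 2 of ET at 30 min) and 8 (without replicate 1 of ET at 60 min). It was 6 without replicate 2 of ET at 60 min, 5 without replicate 1 of FK506 at 0 min and 1 without either library of ET at 10 min, either library of FK506 at 30 min or replicate 2 of FK506 at 0 min.

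At 60 min 15 were higher in FK506 cells and 4 lower (51.9% of all genes were called, 27.9% higher and 24% lower), with a median difference of -0.01 over the 68 and 0.01 over all genes. Of the 15, 13 were C/D snoRNAs, 12 had up to 120 nt, and all 15 were also lower in ET cells at 60 min, a change that shares libraries with the difference. The differences ran from 0.29 for snR84 to 2.12 for snR79, a C/D snoRNA with a mean of 13.9 counts. snR77 differed by 2.09 ± 0.40 (adjusted p = 0.00026), snR24 by 1.80 ± 0.45 (0.0026), snR67 by 1.41 ± 0.21 (1.8e-05), snR39B by 1.37 ± 0.39 (0.0064), snR39 by 1.10 ± 0.30 (0.0054) and snR76 by 0.85 ± 0.26 (0.012), all limma adjusted p. These differences also hold the gap at 0 min, which was -0.52 ± 0.20 for snR77 (adjusted p = 0.22) and -0.41 ± 0.11 for snR67 (adjusted p = 0.075), whose 0 min libraries did not overlap between FK506 and ET cells. The gap was -1.05 ± 0.54 for snR79 (adjusted p = 0.364), which at 60 min had 2.51 and 1.16 TMM-scaled CPM in FK506 cells and 0.401 and 1.55 in ET cells, so that the groups overlapped. It was -0.65 ± 0.20 for snR80 (adjusted p = 0.106), which differed by 0.74. At 60 min both FK506 libraries of snR77, snR67, snR24, snR39, snR39B and snR76 stood above both ET libraries. These RNAs were taken from those called, so this is no separate support. The 60 min libraries of snR79, snR80 and snR84 overlapped between treatments.

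The 4 with a lower change in FK506 cells were the C/D snoRNA snR52 and the H/ACA snoRNAs snR31, snR8 and snR82. snR31 had 128 and 103 TMM-scaled CPM at 60 min in FK506 cells and 225.0 and 133.0 in ET cells, against 168 and 178 at 0 min in FK506 cells and 176 and 147 in ET cells. It differed by -0.69 ± 0.18 (adjusted p = 0.0037). snR52 had 5.61 and 4.16 at 60 min in FK506 cells and 10.7 and 5.05 in ET cells, so that replicate 1 of ET stood apart.

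Without that library 13 were higher and 1 lower, snR31 differed by -0.45 (adjusted p = 0.0208) and snR52 by -0.37 (adjusted p = 0.306). Without replicate 2 of ET at 60 min 8 were higher and 22 lower. The count was 12 without replicate 1 of ET at 0 min, 10 without replicate 2 of FK506 at 0 min and 11 without replicate 2 of FK506 at 60 min. With raw totals, which moved the median of all genes by -0.11, the split was 10 higher and 9 lower, and over all 6206 genes 1425 higher and 1860 lower. The calls of snR67, snR77, snR40 and snR31 held under all 25 alternatives run, and that of snR24 under the 24 that tested it.

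The protein genes of these RNAs were described by list. All 8 core snoRNP protein genes, among them *NOP1* (the methyltransferase of C/D particles) and *CBF5* (the pseudouridine synthase of H/ACA particles), were lower at 10 and 30 min in FK506 cells and at 10, 30 and 60 min in ET cells, and 7 of 8 at 60 min in FK506 cells. Between 15.7 and 35.3% of all genes were lower in these 6 changes. The median log2 change of the 8 at 60 min was -0.46 in FK506 cells and -3.10 in ET cells, and all 8 changes were higher in FK506 cells, with a median difference of 2.61, where 27.9% of all genes were higher. All 4 U3-specific protein genes were also higher by this difference (median 2.18), as were 6 of 9 assembly factor genes, 4 of 9 processing and termination genes, with 1 lower, and 1 of 13 Sm and Lsm genes tested. Of the assembly factor genes, 1 was lower at 60 min in FK506 cells and 7 in ET cells, and of the Sm and Lsm genes 0 in FK506 cells and 7 in ET cells, where 15.7% of all genes were lower in FK506 cells and 34.7% in ET cells. *RNT1*, the endonuclease that cuts many snoRNA precursors, had a log2 change of 0.02 in FK506 cells and -2.83 in ET cells at 60 min. Its FK506 libraries were already lower at 0 min, with 20.8 and 21.2 TMM-scaled CPM against 36.4 and 31.2 in ET cells. At 60 min they had 20.3 and 22.4. Of the 9 processing and termination genes, 3 were lower at 60 min in FK506 cells and 5 in ET cells, with 0 higher. Of 5 other structural RNAs (U2, NME1, RPR1, TLC1 and SCR1), 2 were higher and 0 lower at 60 min in FK506 cells, and 1 was higher and 1 lower in ET cells. Of all genes, 13.1% were higher and 15.7% lower in FK506 cells, and 33.6% higher and 34.7% lower in ET cells.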

How the data were processed

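Gene-level counts of reads were deposited by the authors without scaling. Per the methods of the study, strand-specific libraries of rRNA-depleted total RNA were aligned with TopHat2 2.1.1 and counted with HTSeq, whereas the submitters' processing notes name featureCounts of Subread 1.5.3. The strand and multi-mapping settings are not given in the sources used here. Classes, targets and coordinates come from the RefSeq R64 annotation.

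Counts were filtered with filterByExpr (6206 genes), scaled with TMM and fitted once to 16 libraries with limma 3.58.1 (voom, R 4.3.3), with terms for group and replicate number, taken as the study's undefined batch, and a correlation within a time course (-0.117). The fit has 7 residual degrees of freedom. Between pairs of groups, the replicate-to-replicate deviations of same-numbered libraries correlated between -0.055 and 0.252, which does not show that the numbers pair them. Benjamini-Hochberg adjustment ran over all genes tested, with a threshold of 0.05. Alternatives used edgeR 4.0.16, DESeq2 1.42.0, other scalings and filters, and each library left out. The fit was tested on simulated data.

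Named were RNAs of known role, and per comparison the 2 highest and 2 lowest that passed, with at least 10 mean counts and 1 direction in both replicates. Others singled out (snR8, snR43, snR62, snR75, snR82, snR84, snR40 and the others that differed at 60 min) were chosen after their values were seen. The RNAs and lists were chosen with earlier results of these data known. Libraries of about the same total leave precision limited by counts per RNA where these are few. For RNAs with many counts the spread between 2 replicates limits it. snR17a had 41956 and 22677 counts in the ET libraries at 60 min.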

Additional observations from a re-analysis of the deposited data

Results flagged for a closer look

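The change at 30 min differed between FK506 and ET cells for 2 of the 68 RNAs by limma's test of the difference, snR76 by 0.73 and snR67 by 0.74 on the log2 scale. At 60 min it differed for 19. It was lower in FK506 cells for snR52 (-0.80), snR31 (-0.69), snR8 (-0.56) and snR82 (-0.40). It was higher in FK506 cells for snR84 (0.29), snR57 (0.71), snR80 (0.74), snR68 (0.84), snR76 (0.85), snR40 (1.04), snR39 (1.10), snR18 (1.21), snR39B (1.37), snR67 (1.41), snR74 (1.46), snR87 (1.67), snR24 (1.80), snR77 (2.09) and snR79 (2.12). snR57, snR68, snR79 and snR80 had adjusted p between 0.0412 and 0.0496. At 60 min the FK506 and ET libraries of snR52, snR8, snR82, snR84, snR79 and snR80 overlapped.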

How the results depend on the processing

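Leaving out the replicate number (no replicate block) gave 25, 21 and 27 calls in ET cells, 18, 30 and 20 in FK506 cells, and 0, 2 and 15 for the differences at 10, 30 and 60 min, and changed no count by over 1.5 times. The 30 min difference had 1 call with DESeq2, with scaling from protein-coding ORFs and without a filter, and FK506 at 30 min had 19 with raw totals. With each library left out in turn, calls ranged from 19 to 38 for ET at 10 min, 15 to 26 at 30 min and 25 to 38 at 60 min, from 13 to 28, 13 to 34 and 6 to 33 for FK506, and for the differences 0 at 10 min, 0 to 8 at 30 min and 10 to 30 at 60 min. With RLE or protein-coding scaling FK506 at 10 min had 3 higher. Values that changed sign were snR30 in ET at 60 min with raw totals (0.20), and, without replicate 2 of ET at 60 min, snR17a (0.30), snR35 (0.32) and snR191 (0.29) in ET at 60 min, which were -0.50, -0.35 and -0.54 without replicate 1. The cause was not tested. A lone library of a group is assumed to vary like the others. The 4 RNAs with a mean under 20 counts per library (snR79, snR10, snR66 and snR50) rest on the fewest reads.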
